A study of Rattus norvegicus with 70 samples.

Results

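The interleukin-1 and interleukin-33 family was followed as 10 genes chosen by symbol, namely Il33, Il1rl1, Il1rap, Il1a, Il1b, Il1r1, Il1r2, Il1rn, Il18 and Il18bp. All 10 were found among the 19441 named genes of each of 6 tissue tables. RNA was sequenced from adrenal gland, hypothalamus, liver, lung, muscle and adipose tissue of male Wistar-Kyoto rats, an inbred strain, after 4 h in 0.8 ppm ozone, an oxidant air pollutant, or after 4 h in air. The groups of ozone and air libraries held 6 and 6 each for hypothalamus, liver and lung. There were 6 and 5 for the adrenal gland, 5 and 6 for muscle and 5 and 5 for fat. The labels name no genotype, transgene or other agent, and the sources used here do not state the age of the rats or the hour of collection. Air libraries are numbered up to 12 and ozone libraries from 13, so an order of handling, if the numbers follow one, cannot be told apart from ozone. The labels of 2 more libraries, adrenal air 7 and muscle ozone 17, name samples that were not analysed here. The labels do not say that libraries of a group are separate rats, so p-values measure the spread between these samples.

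Members of this family are ligands, receptors and brakes of early inflammation. The cytokines encoded by Il1a and Il1b bind the receptor of Il1r1, which then recruits the accessory chain of Il1rap and signals through MYD88 and the IRAK kinases to NF-kappa-B. The decoy receptor of Il1r2 binds the same ligands without signalling, and the antagonist of Il1rn occupies the receptor without activating it. Interleukin-33, an alarmin held in the nucleus of barrier, endothelial and stromal cells and released on damage, is sensed by ST2, the product of Il1rl1, with the same accessory chain. Interleukin-18 is made as a precursor that caspase-1 cuts, and the soluble protein of Il18bp neutralises it. In the rat, the adrenal cortex is a known source of Il18 transcript.

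The libraries held 8854272 to 18848151 reads each, recovered from the deposited values, in which the gene counts of each library share 1 scaling factor. Markers of hepatocytes, adrenal cells, neurons, adipocytes, muscle fibres and alveolar epithelium were each highest in the labelled tissue. A pair of libraries stood apart from the others of their tissue, liver air 1 and adrenal air 8, and each member's fold change and ratio was recomputed without each library in turn. A gene is said to have risen or fallen where limma, fitted over all genes of the tissue whose deposited values average 10 or more, gave a Benjamini-Hochberg adjusted p under 0.05. By this rule 17.7% of the tested genes were called in lung, 11.5% in liver, 18.6% in adrenal gland, 1.41% in hypothalamus, 7.32% in adipose tissue and 43.7% in muscle. Scaling by total reads instead moved the share of risen genes among the called from 49.4% to 18.4% in muscle, from 52.8% to 27.4% in adipose tissue, from 49.6% to 29.5% in adrenal gland, from 53.8% to 37.2% in lung and from 55.8% to 45.0% in hypothalamus. It shifted the median of all genes by −0.30 in muscle, −0.13 in adrenal gland and −0.13 in adipose tissue on the log2 scale, and no call on a member of the family was lost with it.

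Of the 60 pairs of gene and tissue, 48 had a mean high enough to test, 14 were called, and 7 of these rose and 7 fell. In lung, 3 of 10 tested members rose and 1 fell, where 9.51% of all tested genes rose and 8.18% fell. In liver, 1 of 8 rose and 1 fell, beside 6.74% and 4.72% of all tested genes. Adrenal gland had 2 risen members of 7 and none fallen, beside 9.23% and 9.38%. Adipose tissue had 1 risen and 1 fallen member of 9, beside 3.87% and 3.45%. Muscle had 4 fallen members of 7 and none risen, beside 21.6% risen and 22.1% fallen. In hypothalamus none of 7 was called by limma, edgeR or DESeq2, with 1 at an unadjusted p under 0.05. The median log2 fold change of the tested members was 0.29 in lung, −0.16 in liver, 0.52 in adrenal gland, −0.14 in hypothalamus, 0.14 in adipose tissue and −0.95 in muscle, while the median of all tested genes lay between 0.00 and 0.02 in size in every tissue.

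**Figure D1:**
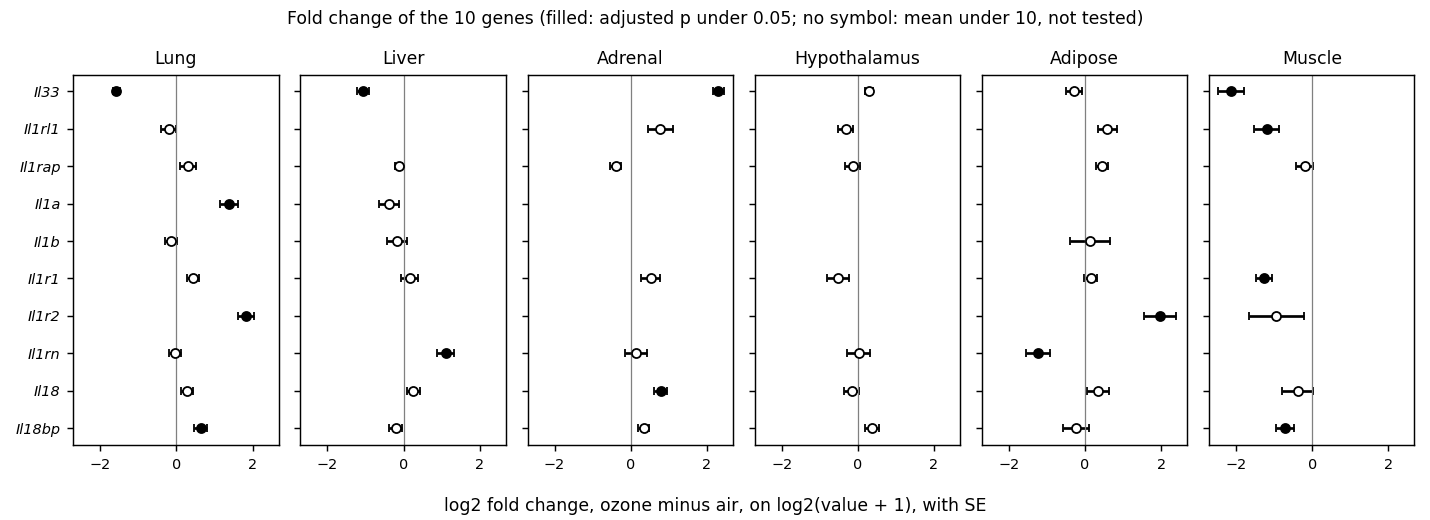
Log2 fold change (x axis, ozone minus air, on log2 of the deposited value plus 1) of each of the 10 genes (rows) in 6 tissues (panels), with bars for the SE. Filled symbols mark adjusted p under 0.05, and Il33 lies left of 0 in lung, liver and muscle and at 2.30 in adrenal gland.

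Il33, the alarmin gene, was the member called in the most tissues. It fell in lung, liver and muscle and rose in adrenal gland. RefSeq, on the rat build GRCr8, gives it 2 start sites, and the 300 bases around each (250 before the start and 50 after, plus strand) are shown because gene-level values do not tell transcripts of these starts apart. Both were searched on both strands for the palindromic glucocorticoid receptor element, the NF-kappa-B motif and the AP-1 motif TGANTCA. Matches are held by 0.439%, 5.37% and 7.33% of 33469 rat promoter windows of the same length. Neither Il33 window held any of the 3, so both are printed without capitals.
Il33, first start, chr1:237115323-237115622: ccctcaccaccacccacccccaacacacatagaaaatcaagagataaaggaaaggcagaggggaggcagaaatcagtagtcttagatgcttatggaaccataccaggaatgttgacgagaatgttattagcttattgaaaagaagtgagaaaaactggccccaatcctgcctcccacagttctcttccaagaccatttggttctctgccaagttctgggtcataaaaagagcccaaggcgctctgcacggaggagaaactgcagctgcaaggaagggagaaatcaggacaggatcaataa
Il33, second start, chr1:237134696-237134995: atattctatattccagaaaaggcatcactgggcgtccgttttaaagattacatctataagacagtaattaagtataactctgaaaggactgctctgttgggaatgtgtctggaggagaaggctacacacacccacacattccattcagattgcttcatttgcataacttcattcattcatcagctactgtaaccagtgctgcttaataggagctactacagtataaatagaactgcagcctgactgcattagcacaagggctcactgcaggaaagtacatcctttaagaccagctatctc

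In lung, the lowest, median and highest Il33 values were 1421, 1627 and 1780.4 in ozone libraries, against 4180.2, 4932 and 5353 in air libraries. The groups lay far apart and each was narrow. Il33 averaged 1609 ± 155 in ozone lungs and 4796 ± 444 in air lungs (SD, n = 6 each), a log2 fold change of −1.58 ± 0.09 (SE) with an adjusted p of 2.09e-07. Of all tested lung genes, 9.54% had groups that did not overlap. Levels of marker lists are given as CPM, the recovered reads of a gene scaled to a fixed library total. Counts of called markers are to be read beside the 9.51% of all tested lung genes that rose and the 8.18% that fell. Of the tested alveolar epithelial markers 3 of 10 rose and 1 fell, of the endothelial markers 1 of 9 rose and 2 fell, and of the fibroblast markers none of 8 was called, with 1 at an unadjusted p under 0.05. In ozone and air lungs the summed levels were 25357 to 34389.5 and 19243 to 28038 CPM for the alveolar list, 4609 to 5417 and 4623 to 6271 for the endothelial list and 2643 to 3438 and 2999.5 to 5627 for the fibroblast list. Of the airway epithelial markers none of 6 rose and 1 fell, and they summed to 1175 to 1766 CPM in ozone lungs and 1576 to 2326 CPM in air lungs. The part of these cell types in the change of Il33 was not tested. In bulk tissue, fewer cells of a type and less RNA per cell cannot be told apart.

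In liver, Il33 was also lower in every ozone library. Its lowest, median and highest values were 569, 796 and 1026 in ozone livers and 1446, 1591 and 2039 in air livers. The mean was 806 ± 179 with ozone and 1667 ± 230.1 in air (SD, n = 6 each), and the log2 fold change was −1.07 ± 0.15 (adjusted p = 3.16e-04). In 7.62% of tested liver genes the groups did not overlap. None of 9 endothelial and none of 7 fibroblast markers was called by limma in liver, with 2 and 0 at an unadjusted p under 0.05. Alveolar markers summed to 943 CPM in liver air 1 and to between 64.3 and 486 in the other 11 liver libraries. Without liver air 1 the Il33 change was −1.09 (adjusted p = 4.32e-04).

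Muscle showed the same direction as lung and liver, from a low level. Il33 stood at 141, 168, 85.3, 62.9 and 72.7 in the 5 ozone muscles, against a lowest, median and highest value of 247, 442 and 775 in the 6 air muscles. All ozone libraries lay under all air libraries. The averages were 106 ± 45.9 (SD, n = 5) with ozone and 474 ± 211 (SD, n = 6) in air, a log2 fold change of −2.13 ± 0.33 (adjusted p = 3.85e-04). The groups did not overlap in 24.3% of tested muscle genes.

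Marker counts in muscle are to be read beside all tested muscle genes, of which 22.1% fell and 21.6% rose. Fibroblast markers fell in 6 of 8 tested genes, and their summed level was 969 to 4552 CPM in ozone muscles and 4790.4 to 17827 in air muscles. Endothelial markers fell in 5 of 9 and rose in 1, with sums of 233 to 319 and 366 to 586. Mast cell and basophil markers fell in 3 of 4, with sums of 3.68 to 13.7 and 20.6 to 43.3, while muscle fibre markers rose in 4 of 6 and fell in 1, with sums of 179869 to 264524 and 109079 to 168089. Within the ozone group, libraries 13 and 15 had the highest fibroblast sums, 3528 and 4552, and also the highest Il33 values. The part of these cell types in the muscle results was not tested.

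In adrenal gland the gene went the other way. Il33 ran at a lowest, median and highest value of 8676, 10166 and 10901 in ozone adrenals, against 2047, 2278, 2466, 1496 and 1844 in the 5 air adrenals. Even the lowest ozone library was above the highest air library by a wide margin. The mean was 9879 ± 828 (SD, n = 6) with ozone and 2026 ± 378 (SD, n = 5) in air, and the log2 fold change was 2.30 ± 0.14 (adjusted p = 1.57e-06). Groups did not overlap in 12.9% of tested adrenal genes. Among all tested adrenal genes 9.23% rose and 9.38% fell, and the marker counts are to be read beside these shares. Endothelial and fibroblast markers each had 1 risen member, of 9 and of 8, and none fallen. Alveolar markers summed to 84.8 to 482 CPM in ozone adrenals and 105 to 185 in air adrenals, with 2 of 10 risen and 1 fallen. Adipocyte markers had 2 of 7 risen and none fallen, with sums of 416 to 1065 CPM in ozone adrenals and 341 to 666 CPM in air adrenals. The microglia list summed to 393 to 875 CPM in ozone adrenals and 128 to 378 CPM in air adrenals with no overlap, and 1 of its 5 genes, Tmem119, rose and none fell. The part of these cell types was not tested. Il33 itself stood at 852 ± 68.6 CPM in ozone adrenals (SD, n = 6) and at 127 ± 14.4 in ozone lungs (SD, n = 6). Such levels depend on what else each tissue expresses.

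In the remaining tissues Il33 did not pass the test. Hypothalamus libraries had a lowest, median and highest value of 690.0, 958 and 1166 with ozone and 664, 765 and 808 in air. The groups overlapped and the log2 fold change was 0.29 ± 0.12 (adjusted p = 0.258). Adipose libraries had 2488, 2165, 3003, 4549 and 2101 with ozone and 2734, 4029, 4114, 3620.2 and 2572 in air, a change of −0.29 ± 0.22 (adjusted p = 0.49), with 1 ozone library above all others.

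**Figure D2:**
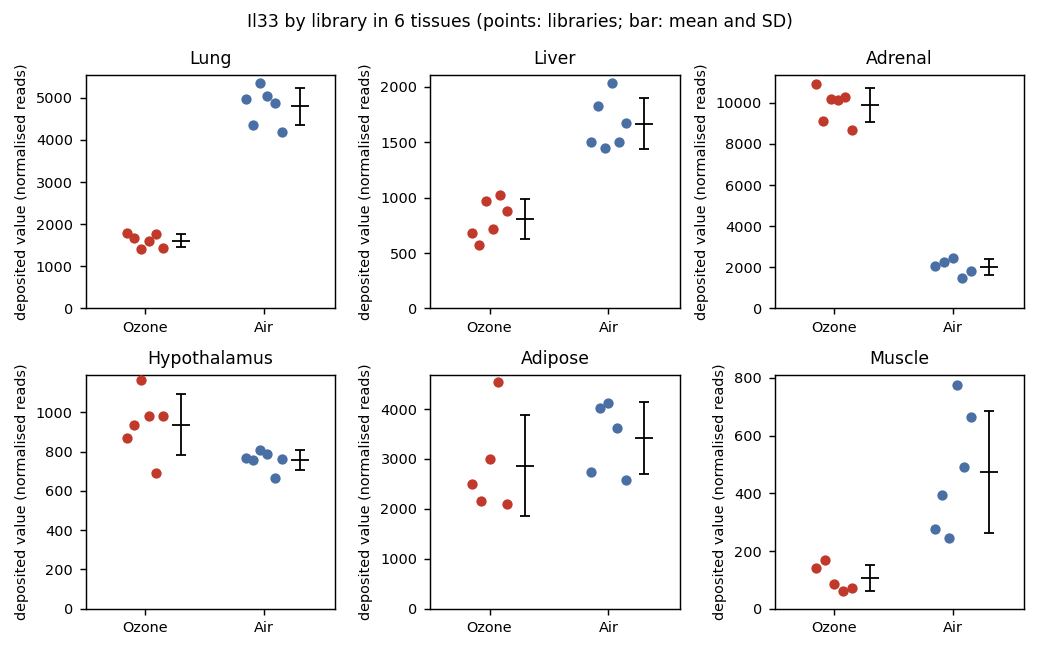
Il33 in every library of 6 tissues (y axis, deposited normalised value, each panel from 0), with ozone left of air and a bar for the mean and SD. Ozone libraries lie below all air libraries in lung, liver and muscle, and above them in adrenal gland at 8676 to 10901 against 1496 to 2466.

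Il1rl1, which encodes the interleukin-33 receptor ST2, was called in muscle alone among the 5 tissues where it could be tested. There it had 44.7, 59.7, 20.5, 19.9 and 17.1 in ozone libraries, against a lowest, median and highest value of 45.4, 67.9 and 92.4 in air libraries. Ozone library 15 reached into the range of air, and ozone library 13 lay just under it. The mean was 32.4 ± 18.9 (SD, n = 5) with ozone and 69.0 ± 19.0 (SD, n = 6) in air, a log2 fold change of −1.20 ± 0.32 (adjusted p = 0.00885). Mast cells are known to carry ST2, and the mast cell sums given above lay lower in every ozone muscle than in any air muscle. The fibroblast and endothelial sums did so too, and the part of any of these cells in the Il1rl1 change was not tested. The other changes were −0.20 ± 0.20 in lung (adjusted p = 0.533), 0.78 ± 0.32 in adrenal gland (0.117), −0.32 ± 0.19 in hypothalamus (0.45) and 0.59 ± 0.25 in adipose tissue (0.185). In liver Il1rl1 averaged 6.52 ± 3.70 with ozone and 5.50 ± 2.82 in air, too low to test. Membrane-bound and soluble forms of this receptor come from 1 gene and were not resolved.

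Il1rap, the accessory chain shared by the interleukin-1 and interleukin-33 receptors, was called nowhere. In lung its values were 213, 256 and 359 (lowest, median, highest) with ozone and 151, 225 and 336 in air. The largest differences were in adipose tissue, 223 ± 20.5 with ozone and 166 ± 30.8 in air (SD, n = 5 each; log2 0.44 ± 0.15, adjusted p = 0.113), and in adrenal gland, 334 ± 39.8 (SD, n = 6) and 445 ± 87.3 (SD, n = 5; log2 −0.40 ± 0.15, adjusted p = 0.0821). The adrenal difference passed with library weights (adjusted p = 0.0348), total-read scaling (0.0201), DESeq2 (0.042) and without adrenal air 9 (0.0273). In adipose tissue it passed with library weights only (0.0346). The changes in liver, hypothalamus and muscle lay between −0.20 and −0.13.

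The 2 interleukin-1 ligand genes are direct neighbours in the RefSeq annotation, and in lung Il1a rose while Il1b was not called. The RefSeq window of Il1a (GRCr8, minus strand) held 1 AP-1 motif, which begins 12 bases before the start and is in capitals. The Il1b window held none of the 3 motifs. Among the other members, Il1r2 had no window to search. The windows of Il18 (AP-1, beginning 5 bases after the start), Il1r1 and Il1rn (both NF-kappa-B) held 1 match each. Of these, Il18 rose in adrenal gland alone and Il1r1 fell in muscle alone. All are matches of letters, and their part in any change was not tested.
Il1a, chr3:136989968-136990267: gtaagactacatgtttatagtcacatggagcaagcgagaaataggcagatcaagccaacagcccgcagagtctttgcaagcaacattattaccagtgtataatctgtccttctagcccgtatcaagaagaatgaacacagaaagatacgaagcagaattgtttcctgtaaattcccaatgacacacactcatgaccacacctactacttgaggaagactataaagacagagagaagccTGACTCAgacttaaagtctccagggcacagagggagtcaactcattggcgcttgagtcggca

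Il1a had a lowest, median and highest value of 264, 525 and 843 in ozone lungs and 152, 206 and 238 in air lungs. All 6 ozone libraries were above all 6 air libraries, though they spread more. The mean was 564 ± 224 with ozone and 202 ± 33.2 in air (SD, n = 6 each), and Il1a rose by a log2 fold change of 1.38 ± 0.24 (adjusted p = 0.00123). Il1b, the inducible ligand of myeloid cells, had 60.0, 74.0 and 94.7 in ozone lungs and 70.4, 79.7 and 101 in air lungs. The groups overlapped throughout, and the change was −0.14 ± 0.15 (adjusted p = 0.561). Macrophage and monocyte markers moved both ways in lung, with 5 of 11 risen and 2 fallen, beside 9.51% and 8.18% of all tested genes. Their sums were 14049 to 17872 CPM in ozone lungs and 10015 to 16259 in air lungs.

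Elsewhere both ligands were low or not called. In liver Il1a averaged 81.2 ± 18.0 with ozone and 111 ± 39.7 in air (SD, n = 6 each; log2 −0.38 ± 0.27, adjusted p = 0.455), and Il1b 26.0 ± 6.28 and 30.3 ± 9.93 (log2 −0.18 ± 0.26, adjusted p = 0.778). Il1b in adipose tissue was 8.42, 14.7, 10.6, 63.5 and 10.9 with ozone and 6.68, 22.9, 21.6, 14.8 and 12.3 in air, with ozone library 22 far above the other 9. Its change was 0.12 ± 0.53 (adjusted p = 0.928), and −0.37 without that library (0.614). Il1a had 0 reads in all 5 ozone and all 6 air muscle libraries, which allows up to 0.0343 and 0.0305 CPM over each group (3 counts of its total). In adipose tissue Il1a had 0 reads with ozone, allowing up to 0.0401 CPM, and 2 reads in air. It was not called there with no minimum, when 4.94% of genes were. Il1a in adrenal gland averaged 3.62 ± 2.24 and 1.25 ± 0.966 and in hypothalamus 7.92 ± 2.83 and 11.5 ± 2.67, with ozone and in air. Il1b averaged 6.93 ± 4.22 and 8.32 ± 3.59 in adrenal gland, 1.26 ± 1.20 and 1.48 ± 0.917 in hypothalamus and 1.46 ± 1.71 and 2.47 ± 2.01 in muscle. None of these low values passed when the minimum was dropped. Intervals and limits of this kind cover counting error only.

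Il1r1, the signalling receptor of both ligands, fell in muscle. It had 164, 161, 116, 98.2 and 100.5 in ozone muscles, against a lowest, median and highest value of 213, 295 and 427 in air muscles. The groups did not overlap. The mean was 128 ± 32.4 (SD, n = 5) with ozone and 313 ± 95.1 (SD, n = 6) in air, a log2 fold change of −1.27 ± 0.22 (adjusted p = 6.19e-04), beside the fibroblast and endothelial sums given above. In lung Il1r1 averaged 1703 ± 263 with ozone and 1284 ± 299.7 in air (SD, n = 6 each), a difference that did not pass (log2 0.43 ± 0.16, adjusted p = 0.0812). In adrenal gland the change of 0.52 ± 0.25 (adjusted p = 0.167) passed with library weights (0.00826) and without adrenal air 8 (0.026). The values in liver, hypothalamus and adipose tissue were 0.16 ± 0.21, −0.52 ± 0.29 and 0.14 ± 0.17, none past the threshold.

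Il1r2, the decoy receptor, lies close to Il1r1 in the RefSeq annotation and rose in lung and adipose tissue, where Il1r1 was not called. In lung its lowest, median and highest values were 41.4, 66.6 and 67.6 with ozone and 11.1, 15.1 and 24.0 in air. Ozone library 16 was the lowest of its group and still above every air library. The mean was 61.5 ± 10.3 and 16.9 ± 5.19 (SD, n = 6 each), a log2 fold change of 1.83 ± 0.21 (adjusted p = 3.26e-05). In adipose tissue the libraries had 111, 186, 110.4, 169 and 66.4 with ozone and 22.5, 35.2, 11.3, 51.3 and 51.7 in air. Again the groups did not overlap, as was the case for 8.81% of tested adipose genes, and the log2 fold change was 1.97 ± 0.41 (adjusted p = 0.0138). Muscle libraries spread widely, at 73.7, 123, 5.40, 16.5 and 21.4 with ozone and 13.1, 69.9 and 114 (lowest, median, highest) in air, and the change of −0.95 ± 0.72 did not pass (adjusted p = 0.304).

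Neutrophils are known to carry this decoy in human and mouse. In lung, neutrophil markers fell in 5 of 8 tested genes and rose in 1, beside 8.18% fallen and 9.51% risen of all tested genes. Their sum, in contrast, was 321 to 441 CPM with ozone and 219 to 312 in air. Lcn2, the 1 that rose, was named after its value was seen and is also made by epithelium. In adipose tissue none of 4 neutrophil markers rose and 1 fell, beside 3.87% and 3.45% of all tested genes, with sums of 23.2 to 45.1 and 31.1 to 43.3. Muscle fibre markers, a sign of muscle in the adipose samples, summed to 58.7 to 1918 in ozone and 171 to 14139 in air adipose libraries. The part of these cells in the Il1r2 results was not tested.

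In hypothalamus and adrenal gland Il1r2 was below the minimum for the test, and its values were examined with no minimum. Hypothalamus libraries had a lowest, median and highest value of 7.72, 15.9 and 18.2 with ozone and 0.968, 1.16 and 1.89 in air, from 89 and 8 reads in all. Every ozone library was above every air library, as in 2.15% of tested genes there, with either group on top. The mean was 14.2 ± 4.15 and 1.32 ± 0.403 (SD, n = 6 each). With no minimum, when 1.11% of genes were called, limma gave a log2 fold change of 2.68 (adjusted p = 1.23e-04), edgeR 3.31 (1.95e-04) and DESeq2 3.42 (6.58e-06). Neutrophil markers in hypothalamus summed to 5.08 to 9.76 CPM with ozone and 6.44 to 14.3 in air, where none of the 2 testable markers was called by limma and both had an unadjusted p under 0.05. Endothelial markers there summed to 162 to 455 and 301 to 416, with none of 9 called and 5 at an unadjusted p under 0.05. Their part in the result was not tested.

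Adrenal libraries had Il1r2 at 4.08, 8.26 and 10.5 (lowest, median, highest) with ozone and 3.23, 0, 0, 2.59 and 4.20 in air, and the groups touched. The change with no minimum was 1.82 by limma (adjusted p = 0.0242; 13.2% of genes called) and missed the threshold in edgeR (0.0633) and when adrenal air 6 (0.0652), ozone 14 (0.0543) or ozone 17 (0.0554) was left out. In liver Il1r2 averaged 2.43 ± 2.45 with ozone and 0.806 ± 0.959 in air, from 15 and 5 reads, and was not called with no minimum, when 7.04% of genes were.

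Il1rn, the receptor antagonist gene, rose in liver and fell in adipose tissue. Its RefSeq window (GRCr8, plus strand) held 1 NF-kappa-B motif, beginning 129 bases before the start and shown in capitals, which is a match of letters and not a measured site.
Il1rn, chr3:27520072-27520371: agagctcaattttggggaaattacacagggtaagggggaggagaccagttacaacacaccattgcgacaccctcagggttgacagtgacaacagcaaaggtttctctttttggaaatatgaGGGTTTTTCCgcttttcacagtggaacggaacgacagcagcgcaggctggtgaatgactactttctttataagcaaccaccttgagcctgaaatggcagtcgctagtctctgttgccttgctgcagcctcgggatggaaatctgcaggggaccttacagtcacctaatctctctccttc

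Liver libraries had a lowest, median and highest Il1rn value of 819.9, 1042 and 1262 with ozone and 278, 486 and 849 in air. The groups met in 1 library, air 9, which lay above the lowest ozone library. The mean was 1048 ± 184 with ozone and 509 ± 197 in air (SD, n = 6 each), a log2 fold change of 1.11 ± 0.22 (adjusted p = 0.00449). None of 12 macrophage and monocyte markers was called in liver by limma, and none had an unadjusted p under 0.05. In adipose tissue the values were 55.4, 26.1, 34.0, 22.9 and 35.9 with ozone and 99.3, 65.2, 132, 83.4 and 45.6 in air, with 1 ozone library above the lowest air library. The mean was 34.8 ± 12.7 and 85.0 ± 32.9 (SD, n = 5 each), and the log2 fold change of −1.24 ± 0.31 (adjusted p = 0.0326) no longer passed in 8 of 10 fits with a library removed, all but those without air 12 or ozone 16, with adjusted p up to 0.0817.

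Lung held Il1rn at 931 ± 244 with ozone and 948 ± 202 in air (SD, n = 6 each), a change of −0.04 ± 0.16 (adjusted p = 0.893). The changes in adrenal gland and hypothalamus were 0.14 ± 0.29 and 0.02 ± 0.30, neither past the threshold. In muscle Il1rn was below the minimum, at 6.70, 2.02, 1.08, 2.21 and 2.14 with ozone and 3.74, 8.36 and 35.8 (lowest, median, highest) in air. With no minimum limma gave −1.67 (adjusted p = 0.018; 32.8% of genes called), edgeR −2.14 (0.0153) and DESeq2 −2.20 (0.00682). In the GRCr8 annotation Il1rn overlaps Il36b, which averaged 10.6 ± 3.93 in ozone livers and 14.6 ± 3.63 in air livers (SD, n = 6 each). Secreted and intracellular forms of the antagonist were not resolved.

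**Figure D3:**
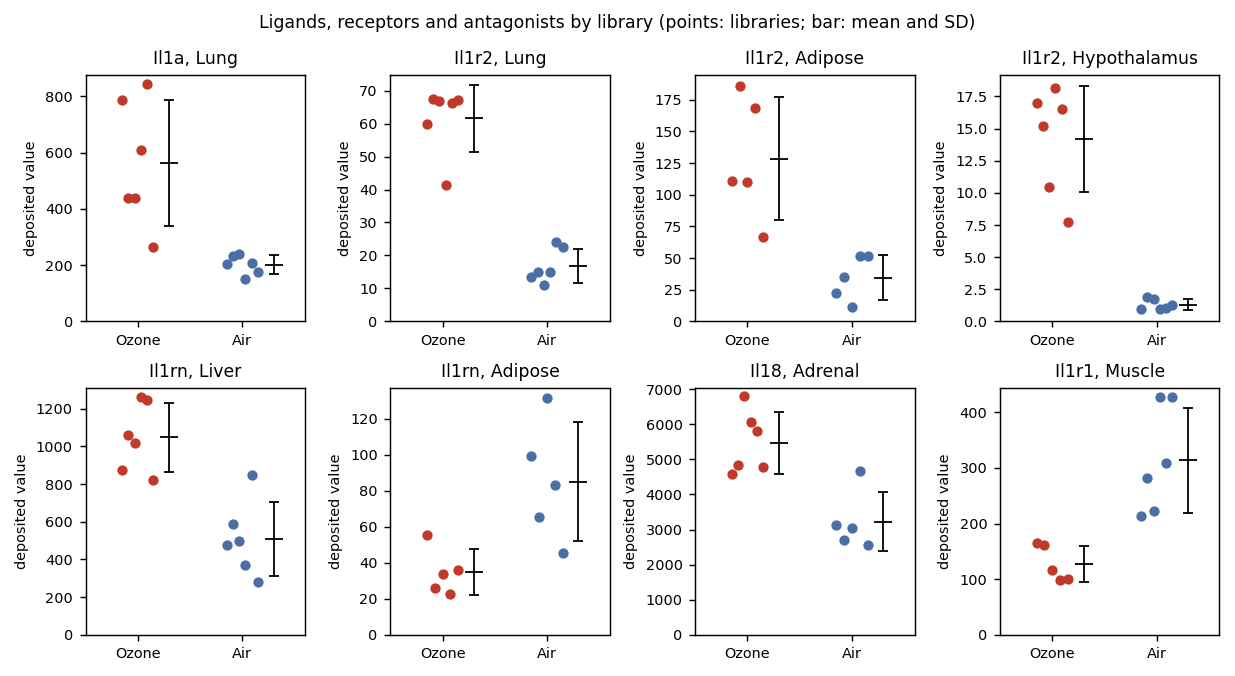
Deposited values by library (y axis, each panel from 0) of Il1a, Il1r2, Il1rn, Il18 and Il1r1 in the tissues where they moved, with ozone left of air and a bar for the mean and SD. Il1r2 in hypothalamus lies between 7.72 and 18.2 with ozone and between 0.968 and 1.89 in air, on few reads, and Il1rn in adipose tissue and liver and Il18 in adrenal gland overlap in 1 library.

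Il18 rose in adrenal gland, where its level was far above that of the other tissues. The lowest, median and highest values were 4574, 5313 and 6818 with ozone, and the 5 air libraries had 3142, 2710.1, 3047, 4658 and 2559. Air library 9 was set apart from its group and reached into the ozone range. The mean was 5475 ± 889.8 (SD, n = 6) with ozone and 3223 ± 837 (SD, n = 5) in air, a log2 fold change of 0.78 ± 0.17 (adjusted p = 0.00604). In GRCr8 the gene overlaps Bco2 and Tex12, and the strand setting of the counting is not given in the sources used here. The split of reads between these genes is therefore uncertain, and Bco2 was not among the named genes of the tissue tables. Tex12 had 2724 ± 273 (SD, n = 6) in ozone adrenals and 2542 ± 615 (SD, n = 5) in air adrenals and did not pass (log2 0.13, adjusted p = 0.641). In the other 5 tissues Il18 differed by between −0.38 in muscle and 0.35 in adipose tissue and was not called.

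Il18bp, which encodes the soluble inhibitor of interleukin-18, rose in lung and fell in muscle. Lung libraries had a lowest, median and highest value of 115, 146 and 180.2 with ozone and 73.1, 91.1 and 149 in air. Air library 2 was the 1 air library inside the ozone range, and it also had the highest fibroblast sum of the lung libraries, 5627 CPM. Without it the change was 0.77 (adjusted p = 0.00108). The mean was 147 ± 20.9 and 95.9 ± 26.9 (SD, n = 6 each), a log2 fold change of 0.63 ± 0.16 (adjusted p = 0.0138). Muscle libraries had 31.3, 58.7, 51.9, 43.0 and 31.0 with ozone and 51.7, 65.6 and 102 (lowest, median, highest) in air. The groups overlapped, and the change of −0.72 ± 0.24 (adjusted p = 0.0275) was lost without muscle air 3 (0.0567), air 4 (0.0581), ozone 13 (0.0732) or ozone 24 (0.0751). The values in liver, adrenal gland, hypothalamus and adipose tissue were −0.21 ± 0.17, 0.34 ± 0.14, 0.36 ± 0.18 and −0.24 ± 0.34, none called.

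Ligands and receptors, and receptors and brakes, were also set against each other within each library as log2 ratios of deposited values plus 1. Genes differ in length, so only the difference between ozone and air is read from them. The log2 ratio of Il33 to its receptor Il1rl1 was 3.50 ± 0.36 in ozone lungs and 4.87 ± 0.35 in air lungs (SD, n = 6 each), a difference of −1.37 (two-sided exact permutation test, p = 0.00216, the smallest this design can give; adjusted over 17 ratio tests, 0.0184). In adrenal gland it was 9.45 ± 0.35 (SD, n = 6) with ozone and 7.93 ± 0.83 (SD, n = 5) in air, a difference of 1.52 (adjusted exact p = 0.0245). Il1rl1 was low there, at 13.4 ± 3.81 with ozone and 7.70 ± 3.20 in air, from 78 and 43 reads in all. The size of the adrenal difference therefore rests on few reads of the receptor and depends on the added 1. Hypothalamus and adipose tissue, where neither gene was called alone, differed in opposite directions. The ratio was 4.99 ± 0.50 with ozone and 4.37 ± 0.26 in air in hypothalamus (SD, n = 6 each; difference 0.62, adjusted exact p = 0.0245), and 2.41 ± 0.33 and 3.29 ± 0.43 in adipose tissue (SD, n = 5 each; difference −0.88, adjusted exact p = 0.0245, at the smallest raw p of this design). In muscle the difference was −0.94 (adjusted exact p = 0.0368), and it was no longer past the threshold in 7 of 11 tests without 1 library.

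The decoy-to-receptor ratio of Il1r2 to Il1r1 was −4.77 ± 0.36 in ozone lungs and −6.17 ± 0.67 in air lungs (SD, n = 6 each; difference 1.40, adjusted exact p = 0.0245). In adipose tissue it was −2.65 ± 0.69 and −4.48 ± 1.17 (SD, n = 5 each; difference 1.83, adjusted exact p = 0.0368), not past the threshold in 8 of 10 tests without 1 library, and in muscle the difference was 0.32 (0.667). The antagonist-to-ligand ratio of Il1rn to Il1b was 5.30 ± 0.29 in ozone livers and 4.01 ± 0.83 in air livers (SD, n = 6 each), with no overlap (difference 1.29, adjusted exact p = 0.0184). It differed by 0.10 in lung (0.667) and −1.36 in adipose tissue (0.169). The ratio of Il18bp to Il18 passed in hypothalamus, at 0.23 ± 0.29 with ozone and −0.30 ± 0.38 in air (SD, n = 6 each; difference 0.53, adjusted exact p = 0.0409), though not in 9 of 12 tests without 1 library. It did not pass in adrenal gland (−0.45, 0.0662), liver (−0.47, 0.0803), lung, adipose tissue or muscle.

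The ozone effect on the same gene was compared between tissues in 1 limma fit of all 68 libraries, by an F test of the interaction of tissue and exposure, in which 35.8% of 15908 genes were called. The effect differed between tissues for 7 of the 10 genes. These were Il33 (adjusted p = 3.74e-19), Il1rn (1.99e-05), Il1r1 (9.96e-05), Il1a (1.71e-04), Il1r2 (4.54e-04), Il1rl1 (0.0011) and Il18bp (0.00255). Il1rap (0.0503), Il18 (0.0672) and Il1b (0.961) did not pass. Of the 7, Il1rn, Il1a, Il1r2 and Il1rl1 had means under 10 in some tissue, where folds are understated. They entered by their mean over all libraries and had no value with a minimum mean of 10 in each table. Il33, Il1r1 and Il18bp passed with that minimum. With a pseudocount of 5 both Il1rap (0.044) and Il18 (0.0377) passed. Il1rap also passed with a minimum mean of 10 in each table (0.0438) and without hypothalamus (0.022), and Il18 without adipose tissue (0.0377). Without the muscle libraries Il1r1, Il1r2, Il1rl1 and Il18bp no longer passed and Il1rap did (0.0469), while Il33 passed without any 1 of the 6 tissues.

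Other genes of the pathway were read from lists. Their counts are to be read against the share of all tested genes called in the same tissue, which was 17.7% in lung, 11.5% in liver, 18.6% in adrenal gland, 1.41% in hypothalamus, 7.32% in adipose tissue and 43.7% in muscle. Among the tested signal transducers, from MYD88 and the IRAK kinases to the NF-kappa-B kinases, 5 of 18 rose and none fell in lung, 1 of 18 rose in liver, and 2 of 18 rose and 1 fell in adrenal gland. In hypothalamus 1 of 18 rose, in adipose tissue 1 of 18, and in muscle 5 of 18 rose and 2 fell. Irak2, a kinase that carries signals of the interleukin-1 receptor and of Toll-like receptors, rose in 5 of 6 tissues, all but liver. No other listed pathway gene was called in as many tissues, and the share of all genes called in that many was not computed. In muscle Irak2 averaged 395 ± 115 (SD, n = 5) in ozone muscles and 85.6 ± 28.8 (SD, n = 6) in air muscles (log2 2.21 ± 0.22, adjusted p = 1.50e-05). The changes were 1.58 ± 0.22 in adipose tissue, 0.79 ± 0.15 in adrenal gland, 0.71 ± 0.11 in hypothalamus and 0.68 ± 0.14 in lung. Myd88, the adaptor, rose in lung by 0.52 ± 0.09, and Tollip, a restraining adaptor, rose by 0.83 ± 0.11 in adrenal gland, 0.49 ± 0.11 in liver and 0.33 ± 0.09 in lung.

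Genes known to respond to interleukin-1 rose in 6 of 15 tested members in lung, 4 of 7 in liver, 3 of 12 in adipose tissue and 1 of 8 in hypothalamus, and none fell in these 4 tissues. In muscle 1 rose and 7 of 12 fell. In adrenal gland none of 9 was called by limma, with 2 at an unadjusted p under 0.05. The chemokine gene Cxcl2 averaged 52.8 ± 20.8 in ozone lungs and 3.27 ± 1.52 in air lungs (SD, n = 6 each; log2 3.66 ± 0.33, adjusted p = 4.98e-06). Tnfaip3, which restrains NF-kappa-B, rose in liver by 1.03 ± 0.28. Csf3, the granulocyte growth factor gene, averaged 82.0 ± 41.1 in ozone and 3.03 ± 2.24 in air adipose tissue (SD, n = 5 each; log2 4.41 ± 0.58, adjusted p = 0.0011). In muscle the adhesion molecule gene Icam1 fell by 1.56 and the chemokine gene Ccl2 by 2.02 on the log2 scale. These genes answer to many signals, and the lists give no test of the interleukin-1 part in them.

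Of the inflammasome and cytokine processing genes, which ready interleukin-1 beta and interleukin-18 for release, 2 of 13 rose and 1 fell in lung, 1 of 12 rose and 1 fell in adrenal gland, 1 of 11 fell in liver and 1 of 13 fell in adipose tissue. In muscle 5 of 10 fell and none rose, beside macrophage and monocyte markers of which 2 of 9 fell and none rose, with sums of 85.0 to 202 CPM in ozone muscles and 140.3 to 345 CPM in air muscles. The part of those cells was not tested. In hypothalamus none of 12 was called by limma, with 3 at an unadjusted p under 0.05. Pycard, the adaptor of the inflammasome, fell in liver (−0.91 ± 0.25), adipose tissue (−0.82 ± 0.22) and muscle (−1.10 ± 0.30). Casp1, the caspase that cuts the interleukin-18 precursor, fell in muscle by 1.12 on the log2 scale (adjusted p = 0.00102). Nlrp3, the sensor of the best known inflammasome, fell in adrenal gland (−0.88 ± 0.23) and muscle (−0.96 ± 0.23).

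Among the other ligands and receptors of the family the 1 called gene was Sigirr, an inhibitory receptor, which fell in lung (−0.42 ± 0.14, 1 of 5 tested genes) and muscle (−0.93 ± 0.26, 1 of 2). Of the genes of type 2 lymphoid cells and of responses to interleukin-33, none of 8 was called in lung by limma, with 1 at an unadjusted p under 0.05. The 1 risen member in liver was Arg1, a urea cycle enzyme of hepatocytes (1.18 ± 0.26), and the 1 in adrenal gland and in adipose tissue was Rora, a nuclear receptor expressed in many cell types (1.92 ± 0.26 and 1.14 ± 0.27).

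**Figure D4:**
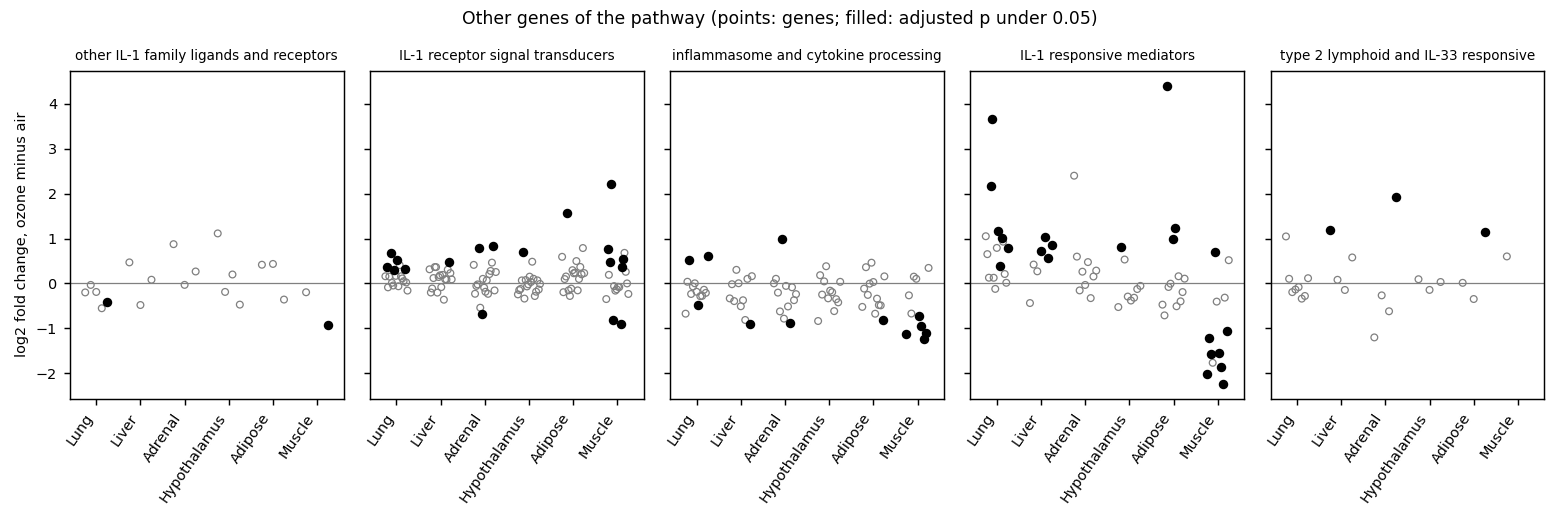
Log2 fold change (y axis, ozone minus air) of each tested gene of 5 pathway lists (panels) in 6 tissues (x axis), with filled points at adjusted p under 0.05. In the panel of IL-1 responsive mediators the called genes lie above 0 in lung, liver, hypothalamus and adipose tissue, and 7 of the 8 called in muscle lie below 0.

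Levels in air libraries, in CPM, place the family members across tissues. The tables were normalised separately and levels depend on what else a tissue expresses, so the order is a description. Il33 stood highest in lung at 397 ± 40.1 (SD, n = 6) and lowest in muscle at 32.2 ± 16.2 (SD, n = 6). Between them, adipose tissue (229 ± 52.8, n = 5) and adrenal gland (191 ± 32.0, n = 5) overlapped, followed by liver (116 ± 14.7, n = 6) and hypothalamus (64.2 ± 3.80, n = 6). After ozone the adrenal gland, at 852 ± 68.6 (SD, n = 6), held the highest Il33 level of the 12 groups. With TMM scaling over all 6 tables liver moved to the second place of the air groups, and muscle and hypothalamus exchanged places. Il18 was highest in adrenal gland at 306 ± 83.9 (SD, n = 5), then in lung at 23.6 ± 3.99 (SD, n = 6), while hypothalamus, liver and adipose tissue overlapped in that order and muscle had 0.778 ± 0.440 (SD, n = 6).

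Il1r1 was close in lung (106 ± 23.4, n = 6) and liver (105 ± 23.6, n = 6), which overlapped, and lower in adipose tissue (47.1 ± 10.1, n = 5). Muscle, hypothalamus and adrenal gland overlapped below it. Il1rap ran from 54.5 ± 6.41 in liver (SD, n = 6) to 3.48 ± 1.45 in muscle (SD, n = 6), with each neighbour in the order overlapping the next except the last pair, adipose tissue and muscle. Il1rl1 was highest in adipose tissue (24.1 ± 7.70, n = 5) and lung (13.7 ± 3.18, n = 6), which overlapped, and lowest in liver (0.391 ± 0.214, n = 6). Il1rn stood at 78.6 ± 18.0 in lung and 35.2 ± 12.8 in liver (SD, n = 6 each), which did not overlap, and at or under 5.66 ± 2.14 (adipose tissue, n = 5) elsewhere. Il1a and Il1b were highest in lung, at 16.7 ± 2.73 and 6.91 ± 1.19 (SD, n = 6), followed by liver, though with TMM scaling Il1a, Il1r1 and Il1rn were higher in liver than in lung. Il1r2 overlapped among muscle (4.65 ± 2.73, n = 6), adipose tissue (2.32 ± 1.23, n = 5) and lung (1.39 ± 0.410, n = 6). Il18bp ranged from 4.79 ± 1.41 in muscle (n = 6) to 13.5 ± 1.59 in adrenal gland (n = 5), and all its neighbours in the order overlapped. With TMM scaling Il18bp was highest in liver and lowest in hypothalamus, with muscle at the third place, and the lowest Il1rl1 level was in adrenal gland. Liver then also stood above hypothalamus for Il18 and Il1r2.

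**Figure D5:**
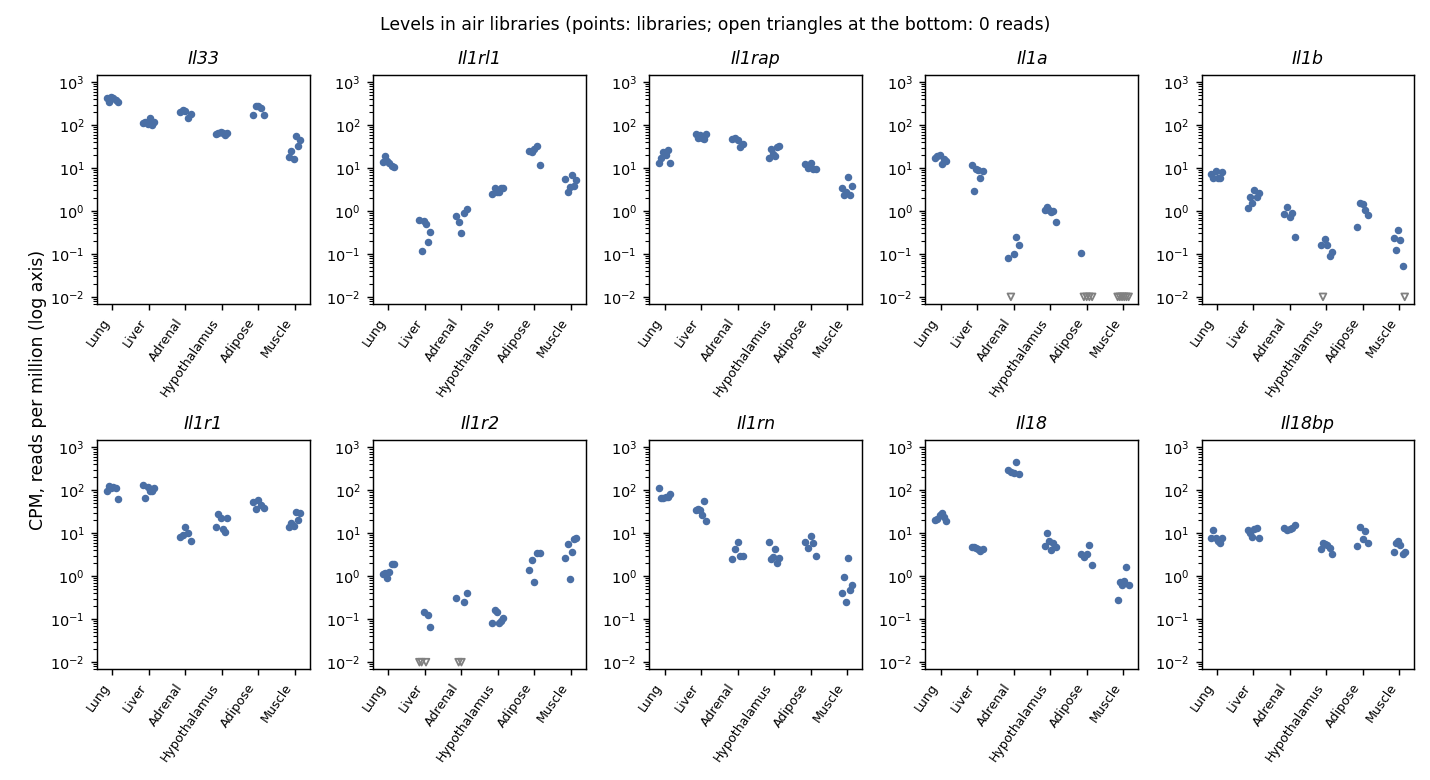
Levels in CPM (y axis, log scale) of each of the 10 genes in the air libraries of 6 tissues, 1 point per library, with open triangles at the bottom for 0 reads. Il18 in adrenal gland, at 245.8 to 451, lies above all other tissues, and Il1a has 0 reads in all muscle libraries.

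For the 5 members with a mean of at least 10 in every table, the genes with the most similar pattern over the 68 libraries were listed among 11111 genes, by Pearson's r after removing the mean of each tissue and, second, after removing the mean of each group. For Il33 they were Lasp1 (0.79 and 0.25), Id4 (0.79 and 0.53) and Plpp3 (0.75 and 0.58). The values were lower within groups, by most for Lasp1. For Il1r1 they were Man2a1 (0.83 and 0.82), Col8a1 (0.80 and 0.76) and Dse (0.80 and 0.70). For Il1rap they were Ero1a (0.70 and 0.69), Brwd3 (0.70 and 0.72) and Psd3 (0.69 and 0.69), for Il18 Btg3 (0.60 and 0.49), LOC103689931 (0.55 and 0.43) and Pnrc1 (0.52 and 0.35), and for Il18bp Ier3 (0.65 and 0.54), Ngef (0.62 and 0.59) and Dusp1 (0.60 and 0.49). The points share libraries, depth and normalisation, and these values are a description.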

How the data were processed

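RNA of flash-frozen tissue was selected for mRNA and sequenced on a NextSeq 500, per the labels' protocols, with Qiagen kits for lung, liver, muscle and adipose tissue and a Zymo kit for hypothalamus and adrenal gland. Partek, DESeq2 and the rat build rn6 are named, without versions or roles, per the submitters' processing notes. The sources used here do not name the aligner, the annotation, or the counting and its strand setting. The deposited signal is a normalised gene value, 1 table per tissue. Dividing each library by its smallest step returned whole reads for 100% of the values within a tolerance of 0.01, so the deposited values are gene counts over 1 factor per library, and 24 rows with gene names turned into dates were left out. The 6 tables were normalised apart, so folds were computed within a tissue, and levels across tissues are CPM of the recovered reads.

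The main test was limma 3.58.1 in R 4.3.3, with trended and robust moderation, on log2 of the deposited value plus 1, which understates folds of low genes. Genes with a mean of at least 10 entered, each tissue was fitted apart, and p-values were adjusted by Benjamini and Hochberg over all its genes. Differences between tissues used the F test of the interaction terms, and ratios the exact permutation test of scipy 1.17.1. The same whole reads were tested with edgeR 4.0.16, which called 2680 genes in lung, 1423 in liver, 2636 in adrenal gland, 203 in hypothalamus, 1033 in adipose tissue and 5651 in muscle, and with DESeq2 1.42.0. Other alternatives were a pseudocount of 5, no minimum, a minimum of 50, plain moderation, library weights, total-read and TMM scaling, each library left out in turn, each tissue left out, and, for low members, fits with no minimum chosen after seeing the data. On simulated counts limma recovered 54% to 85% of genes changed by 1 on the log2 scale and 91% to 100% of those changed by 2. In each tissue 100 genes were changed by each size, drawn from genes with means above the minimum. These shares therefore do not cover members near the minimum, nor fits in which many more genes change.

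The family members, marker lists and pathway lists were chosen with earlier results of these data known. All 10 members are named. Of each list, up to 4 genes a tissue with the lowest adjusted p among those called could be named, and for likeness the 3 genes with the highest r. Tollip in lung was named outside this rule. Libraries of a group differed beyond counting noise, with a chi-square per degree of freedom of at least 8.76 for any pair. The labels do not say whether libraries that carry a common number come from a shared rat. The correlations across tissues given below cannot decide it, since organs of a rat need not deviate alike. The main fit over all tissues treated the libraries as independent. A fit with the number as a block is given below, and it does not show whether rats were shared. Promoter windows are RefSeq's for GRCr8, matched by symbol for 9 of the 10 genes, all but Il1r2, and no coordinate was moved between builds. Limits from 0 reads use 3 counts over the group.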

Additional observations from a re-analysis of the deposited data

Results flagged for a closer look

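Single libraries lay far from their group for 8 of the 96 sets of values examined with Dixon's test at 95%, where chance flags about 1 in 20. In lung, Il1r2 was 41.4 in ozone library 16, under the next lowest value of 59.97. Il1rn was 1343 in lung air 1, above the next of 959, and Il18bp was 149 in lung air 2, above 91.5. In liver, Il18bp was 93.0 in ozone library 20, under 132. In adrenal gland, Il1r1 was 243 in ozone library 16, above 151, and Il18 was 4658 in air library 9, above 3142. Il33 was 664 in hypothalamus air 6, under 758, and Il1b was 63.5 in adipose ozone 22, above 14.7.

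The ozone effect differed between tissues by the interaction test of limma for Il33 (adjusted p = 3.74e-19), Il1rn (1.99e-05), Il1r1 (9.96e-05), Il1a (1.71e-04), Il1r2 (4.54e-04), Il1rl1 (0.0011) and Il18bp (0.00255). Il33 fell in 3 tissues and rose in 1, while Il1rn and Il18bp each rose in 1 tissue and fell in another. Il1rn, Il1a, Il1r2 and Il1rl1 were too low to test in some tissue, so part of their comparison rests on low values.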

How the results depend on the processing

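Of the 14 calls on members, 12 kept their direction and passed under every setting and without any 1 library, the exceptions being Il1rn in adipose tissue and Il18bp in muscle, both lost only by leaving out libraries. A minimum of 50 gave no value for members under it, Il1r2 in lung among them. Near-zero changes turned sign. Il1rn in hypothalamus was −0.11 with library weights, −0.0014 with total-read scaling, −0.0077 in edgeR and −0.013 in DESeq2, and −0.15 to 0.21 without 1 library. Il1b in adipose tissue was −0.035 with library weights and −0.011 with total-read scaling, and −0.37 to 0.33 without 1 library. Leaving out 1 library also moved Il1rn between −0.16 and 0.064 in lung and between −0.022 and 0.37 in adrenal gland. For the ratios that range was −0.036 to 0.20 for Il1rn over Il1b in lung, −0.10 to 0.85 for Il1r2 over Il1r1 in muscle, 1.39 to 2.07 for the same in adipose tissue and −1.14 to −0.86 for Il33 over Il1rl1 in muscle. For Il18bp over Il18 it was −0.66 to 0.0033 in muscle, −0.62 to −0.36 in liver (past the threshold without ozone 14), −0.59 to −0.31 in adrenal gland (past it without air 9) and 0.42 to 0.66 in hypothalamus. Members called in adrenal gland were 4 with library weights against 2, in hypothalamus 1 with no minimum against 0, and in adipose tissue 1 to 2 without 1 library. Members whose effect differed between tissues were 4 without muscle and 4 with a minimum of 10 in each table, where 5 members had no value, against 7. They were 9 with a pseudocount of 5 and 8 without hypothalamus or without adipose tissue. Over all genes, library weights called 3941 genes in lung against 2623, 2302 in liver against 1440, 4822 in adrenal gland against 2609 and 723 in hypothalamus against 215, and DESeq2 called 551 in hypothalamus and 1616 in adipose tissue against 1043. Without 1 library the calls over all genes were 108 to 291 in hypothalamus and 611 to 1223 in adipose tissue. The cause of these moves was not tested.

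No paired analysis was possible because ozone and air libraries share no number in any tissue. Across tissues, 34 of 90 pairs of equal number had a correlation of deviations over 0.1. This share does not tell whether such pairs come from a shared rat. With the number as a replicate block in the interaction fit the consensus correlation was 0.00102 and 7 members passed, as without the block.

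Depth limits the low members, since Il1r2 in hypothalamus rests on 89 reads with ozone and 8 in air.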
